A study of Mus musculus with 15 samples.

Results

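RNA levels of the genes of the endocannabinoid system, the receptor Cnr1 and 7 enzymes that make or degrade its ligands, were described in the mouse cerebellum (Ce) and striatum (St). The genes were chosen by name, as the rows of the deposited expression table with the symbols Cnr1, Napepld, Dagla, Daglb, Mgll, Abhd6, Abhd12 and Faah, and all 8 were present among the 26628 genes of the table. All 8 passed the filter on low values in the 15 samples, together with 15213 genes in all.

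The samples came from male mice of the Hsd:ICR strain, of 1 line selectively bred for high voluntary wheel running (Hi) and 1 control line (Co), and the groups were CeCo with 4 samples, CeHi with 4, StCo with 4 and StHi with 3. Another StHi sample was left out by the authors on the basis of principal components. All mice, controls included, had a running wheel, by the series description from about 6 weeks of age with brains taken after 7 days and by the methods of the study from a somewhat younger age, so that no group was without a wheel. Each line is a single breeding population, so selection and chance divergence between the lines cannot be told apart, and the labels do not say whether the Ce and St samples came from the same mice. Hi and Co were taken from the names of the samples and columns alone. No gene in the data marks a line by itself. The paper reports Npy as lower in the Ce of Hi than of Co mice, whereas here it was higher in CeHi. Whether the 2 line names were exchanged was not tested. An exchange would turn the direction of every line difference given here.

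Endocannabinoids are lipid messengers that a postsynaptic neuron makes on demand and that travel backwards across the synapse. They bind the G protein-coupled receptor CB1, encoded by Cnr1, on the presynaptic terminal and reduce transmitter release. The ligand 2-arachidonoylglycerol (2-AG) is formed by diacylglycerol lipases and removed by several serine hydrolases, whereas anandamide belongs to the N-acylethanolamines and has its own synthetic and degrading enzymes. In the Ce, CB1 is best known from the terminals of parallel fibers, climbing fibers and basket cells onto Purkinje cells, and in the St from projection neurons, some interneurons and cortical afferents.

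The values are normalized counts, the fragment count of a gene divided by a library size factor of the sample and not by gene length. The fragments counted over the genes of the table were 32909383 to 47485535 per sample. The tissue labels were in keeping with marker genes: the summed normalized counts of 5 granule cell markers were 171982 to 221448 in the Ce and 2493 to 3761 in the St, and those of 8 striatal projection neuron markers were 168672 to 233951 in the St and 8319 to 11668 in the Ce. No marker was at 0 throughout the samples. The sum of 4 choroid plexus markers ranged from 712 to 113383 over the Ce samples and from 214 to 16000.2 over the St samples. Differences below are log2 values with their standard error (SE) from limma and P-values adjusted for the false discovery rate (FDR) over all 15213 genes. An adjusted P-value under 0.05 is called passing. The tissue is a mixture of cells, and fewer cells of a type cannot be told apart from less RNA per cell.

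The genes lie on 6 chromosomes of the build GRCm38. Cnr1 occupies chr4:33924593-33948831 on the plus strand and Faah chr4:115967145-116017926 on the minus strand of the same chromosome. Napepld lies at chr5:21662901-21701396 on the minus strand and Daglb at chr5:143464584-143505942 on the plus strand. Mgll lies at chr6:88724412-88828360 and Abhd6 at chr14:8002902-8056763, both on the plus strand, while Dagla at chr19:10245265-10304877 and Abhd12 at chr2:150832493-150904741 are on the minus strand. Exons of Rac1 on the opposite strand cover 2309 bases of Daglb, which is 24.1% of its exon bases. The strand setting of the counting was not given in the sources used here, so reads of Daglb and Rac1 in that stretch cannot be told apart. The antisense gene Gm26588, which is not listed in the table, covers 167 exon bases of Mgll, or 3.29%, and the exons of the other 6 genes overlapped no other gene.

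The 250 bases before a transcription start are shown for Cnr1 and Mgll, the genes with the largest region differences in either direction. They were taken from RefSeq on GRCm38.p6, which listed a start region for 6 of the 8 genes, and several starts for Cnr1 and Mgll. Both are on the plus strand and are written 5′ to 3′. Capitals mark the GC box GGGCGG or its reverse complement CCGCCC in Cnr1 and the E-box CACGTG in Mgll.
Cnr1, chr4:33924014-33924263: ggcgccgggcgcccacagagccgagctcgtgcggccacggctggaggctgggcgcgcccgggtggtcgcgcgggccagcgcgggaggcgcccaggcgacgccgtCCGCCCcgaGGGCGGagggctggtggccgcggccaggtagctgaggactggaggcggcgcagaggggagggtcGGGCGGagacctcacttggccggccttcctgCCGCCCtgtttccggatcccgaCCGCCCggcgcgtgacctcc
Mgll, chr6:88724162-88724411: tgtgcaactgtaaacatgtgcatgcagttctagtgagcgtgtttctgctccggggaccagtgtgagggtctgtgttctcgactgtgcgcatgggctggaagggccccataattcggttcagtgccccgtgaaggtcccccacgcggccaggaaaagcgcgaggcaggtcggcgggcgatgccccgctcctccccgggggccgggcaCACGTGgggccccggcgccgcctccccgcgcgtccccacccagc
The Cnr1 stretch held 5 GC boxes on both strands, 36 CG dinucleotides and 79.2% G and C, and the Mgll stretch held 1 E-box, no GC box, 23 CG dinucleotides and 68.0% G and C. Over 32817 start regions of the same length, the median was 6 CG dinucleotides and 52.4% G and C, 32.7% held a GC box and 6.02% held the E-box, each counted on both strands. The other listed starts differed from these. A Cnr1 start region at chr4:33924394-33924643 held no GC box, 1 E-box and 28 CG dinucleotides, one at chr4:33926130-33926379 held neither box and 5 CG dinucleotides, and a Mgll start region at chr6:88724454-88724703 held 1 GC box, no E-box and 40 CG dinucleotides. The letters TATAAA were searched too, were found in 12.4% of all start regions and occurred in neither printed stretch. These matches describe the sequence only.

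Cnr1 was the receptor gene and had the highest level per total exon length of the 8 genes in the Ce. Its normalized counts were 26219, 29961, 24677 and 27337 in the CeCo samples and 21908, 21788, 21018 and 18323 in the CeHi samples. In the St they were 20175, 15988, 11748 and 21149 in StCo and 13780.5, 12825 and 16233 in StHi. Every Ce sample of the control line was above every St sample of that line, and the same held in the selected line. The level was lower in the St than in the Ce by a log2 difference of -0.61 ± 0.11 (SE) over both lines, a ratio of 0.656 (limma, adjusted P-value = 0.000104). The difference was -0.68 in the control line (adjusted P-value = 0.000723) and -0.54 in the selected line (adjusted P-value = 0.00725).

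Cnr1 varied more between StCo samples than between samples of the other groups. The SD of the log2 values was 0.39 in StCo, against 0.11 in CeCo, 0.12 in CeHi and 0.17 in StHi, and the highest StCo sample was 1.80 times the lowest. Among 447 genes within 0.5 log2 units of its level in StCo, the SD of Cnr1 was at percentile 99.8. The lowest value, 11748, was in StCo replicate 2, and the summed normalized counts of 4 cortical excitatory neuron markers were lowest in StCo in that same sample, 6543 against 8274 to 9873 in the other 3. Its sums were also lowest in StCo for markers of interneurons (17951 against 19597 to 21935), astrocytes (163199.7 against 186448 to 198919), microglia (10853 against 11411 to 12168) and endothelial cells (4718 against 5796 to 6101). The lists named for Purkinje and granule cells, cell types of the Ce, were lowest in that sample as well. It was second lowest for projection neuron markers (175463 against 168672 to 233731) and oligodendrocyte markers (201584 against 184858 to 269931). It was second highest for oligodendrocyte precursor markers (3966 against 3674 to 4009) and choroid plexus markers (320 against 214 to 742). In StHi replicate 1 had the lowest Cnr1 value and the lowest cortical marker sum, 4658 against 7205 and 8993, but the highest projection neuron sum, 233951 against 182826 and 225449. The highest Cnr1 value in StHi was in replicate 2 and the highest cortical sum in replicate 0. The part of these markers in the spread of Cnr1 was not tested.

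**Figure D1:**
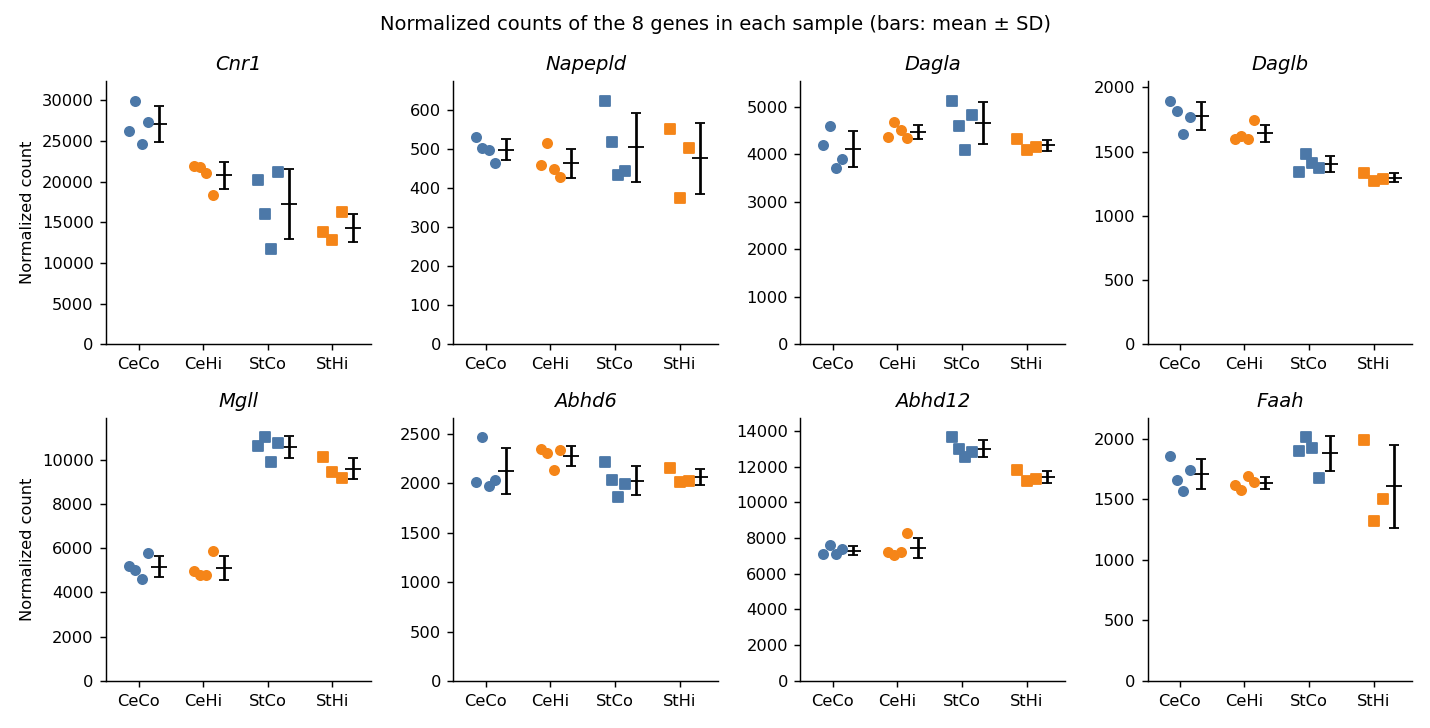
Normalized counts (vertical axes, from 0) of the 8 genes in each sample of the CeCo, CeHi, StCo and StHi groups, with points for samples and black bars for the mean ± SD. Mgll and Abhd12 sit higher in every St sample than in any Ce sample, Cnr1 in StCo spreads from 11748 to 21149, and the CeHi points of Cnr1 lie under all CeCo points.

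The diacylglycerol lipases, which cleave diacylglycerol to 2-AG, differed from each other in their region pattern. Dagla encodes the main 2-AG-forming enzyme of neurons, and its normalized counts were 4208, 4602, 3720.3 and 3907 in CeCo and 4366, 4674, 4505 and 4341 in CeHi, and 5135, 4606, 4094 and 4828 in StCo and 4323, 4100.1 and 4159 in StHi. The regions overlapped in the control line, and in the selected line the highest StHi value was just below the lowest CeHi value, an order that TMM scaling reversed. The St to Ce difference over both lines was 0.05 ± 0.05 (SE) with a 95% confidence interval of -0.06 to 0.16. In the control line the level was higher in the St by 0.19 ± 0.07 (adjusted P-value = 0.0209), and in the selected line the difference was -0.09 ± 0.07 (adjusted P-value = 0.304). The first of these no longer passed without CeCo replicate 2 (adjusted P-value = 0.0901), CeCo replicate 3 (0.0666), StCo replicate 0 (0.0808) or StCo replicate 3 (0.0548), nor with quantile normalization (0.11, adjusted P-value = 0.0970) or without a filter (0.0515).

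Daglb encodes the second lipase, and its normalized counts were 1898, 1815, 1633 and 1770.5 in CeCo and 1601, 1621, 1599.7 and 1743 in CeHi. They were 1342, 1484, 1413 and 1373 in StCo and 1333, 1269 and 1289.5 in StHi. The Ce samples were above the St samples in both lines without overlap. The St level was lower by -0.34 ± 0.04 on the log2 scale over both lines, a ratio of 0.793 (adjusted P-value = 4.77e-07), with the overlap of its exons with Rac1 as a limit on the value.

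The 3 hydrolases that remove 2-AG did not share 1 region pattern. Mgll encodes monoacylglycerol lipase, the main 2-AG hydrolase of the brain, and was measured at 5214, 5013, 4621 and 5762 normalized counts in CeCo and 4956, 4790.3, 4766 and 5880 in CeHi. In the St the counts were 10600.2, 11011, 9896 and 10769 in StCo and 10133, 9462 and 9187 in StHi. The St samples were all above the Ce samples, by 0.98 ± 0.05 on the log2 scale over both lines, a ratio of 1.98 (adjusted P-value = 1.79e-11). Abhd12 encodes a hydrolase also known for its action on lysophosphatidylserine, with counts of 7080.3, 7588, 7091 and 7362 in CeCo and 7223, 7036, 7213 and 8301 in CeHi, and 13639, 12959.9, 12556 and 12835 in StCo and 11822, 11168 and 11279 in StHi. It was higher in the St by 0.73 ± 0.04, a ratio of 1.66 (adjusted P-value = 1.30e-11). Abhd6, a hydrolase of the postsynaptic side, had counts of 2019, 2467, 1975 and 2034 in CeCo and 2345, 2311, 2131 and 2339 in CeHi, and 2214, 2038, 1863 and 1996 in StCo and 2158, 2014 and 2019.8 in StHi. The regions overlapped, with a difference of -0.10 ± 0.05 and a 95% confidence interval of -0.20 to 0.01 (adjusted P-value = 0.0786, and 0.0484 without CeHi replicate 2, 0.0361 without StCo replicate 0 and 0.0162 with quantile normalization).

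Over both lines the anandamide genes had, with Dagla, the smallest region differences. Napepld encodes the phospholipase D that releases N-acylethanolamines, and its normalized counts were the lowest of the 8 genes, with 529, 501, 497 and 464 in CeCo and 458, 514, 449 and 428 in CeHi, and 623, 518, 432 and 443 in StCo and 551, 374 and 501 in StHi. The region difference was 0.02 ± 0.09 with a 95% confidence interval of -0.17 to 0.21. Faah encodes the hydrolase that ends anandamide signalling, and was measured at 1859, 1661, 1567 and 1746 in CeCo and 1622, 1577, 1696 and 1645 in CeHi, and 1901, 2015, 1926 and 1681 in StCo and 1991, 1325 and 1508 in StHi. Its region difference was 0.05 ± 0.07 with a 95% confidence interval of -0.10 to 0.20, and in the selected line it was -0.04 ± 0.10, or -0.20 without StHi replicate 0 (adjusted P-value = 0.0352). Faah in StHi had an SD of 0.30 on the log2 scale, at percentile 97.2 of 2529 genes of like level, with replicate 0 at 1991 and the other samples at 1325 and 1508.

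Over both lines, 4 of the 8 genes passed the region comparison, Mgll and Abhd12 higher in the St and Cnr1 and Daglb higher in the Ce. Of all genes tested 80.2% passed it, 39.6% higher in the St and 40.6% higher in the Ce. In the control line 5 of 8 passed against 74.7% of all genes, and in the selected line 4 of 8 against 70.5%. The region groups did not overlap for 4 of 8 genes in the control line, against 70% of all genes, and for 4 of 8 in the selected line, against 68.2%. The median region difference of the 8 genes was 0.03 over both lines and that of all genes was -0.01.

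**Figure D2:**
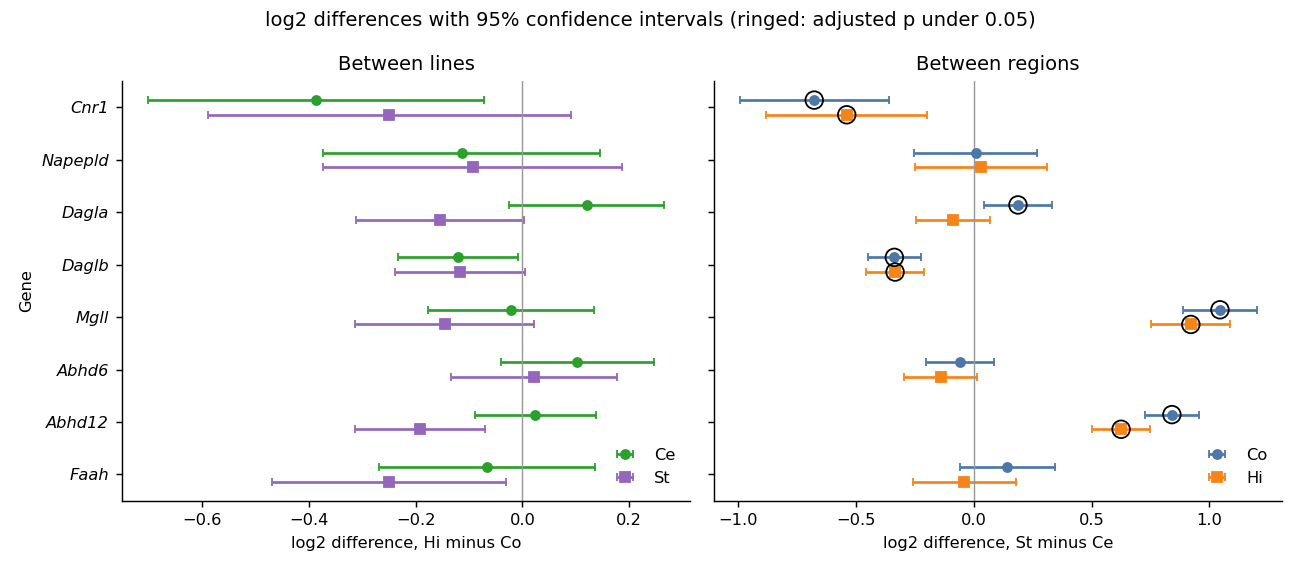
log2 differences of the 8 genes (horizontal axes) between lines within the Ce and the St (left) and between regions within the Co and the Hi line (right), as points with 95% confidence intervals and rings around adjusted P-values under 0.05. No line difference is ringed, whereas Mgll, Abhd12, Cnr1 and Daglb are ringed between regions in both lines and Dagla in the Co line alone.

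Levels of different genes were compared per exon length, as fragments per kilobase of exon and per 1000000 fragments. In CeCo the order was Cnr1 at 106.5 ± 7.11 (SD, n = 4), Abhd12 at 65.5 ± 1.76, Mgll at 25.8 ± 2.38, Abhd6 at 22.8 ± 2.099, Dagla at 18.1 ± 1.34, Faah at 5.53 ± 0.367, Daglb at 4.72 ± 0.226 and Napepld at 3.19 ± 0.156. The order was the same in CeHi, where Cnr1 was at 81.6 ± 5.85 and Abhd12 at 66.8 ± 5.81. Mgll and Abhd6 did not differ beyond their spread in either Ce group. In the St Abhd12 was first, at 107.6 ± 2.27 in StCo and 95.3 ± 2.55 in StHi, and Cnr1 second, at 62.4 ± 14.5 and 52.1 ± 5.86. Cnr1 did not differ beyond the spread from Mgll, which was at 48.7 ± 1.72 in StCo and 44.5 ± 2.28 in StHi. Daglb and Napepld, at 3.43 ± 0.198 and 2.97 ± 0.476 in StCo, did not differ beyond their spread in either St group, nor did Abhd6 and Dagla in StCo. With the longest transcript as the length, Abhd12 at 94.4 came before Cnr1 at 90.5 in CeHi, where they did not differ beyond their spread, and Daglb before Faah in both Ce groups. By that length Daglb was at 6.73 in StCo and 6.26 in StHi, beyond the spread from Napepld at 2.98 and 2.83, and not beyond the spread from Faah at 6.83 in StHi. Mgll and Abhd6 then differed beyond their spread in both Ce groups.

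**Figure D3:**
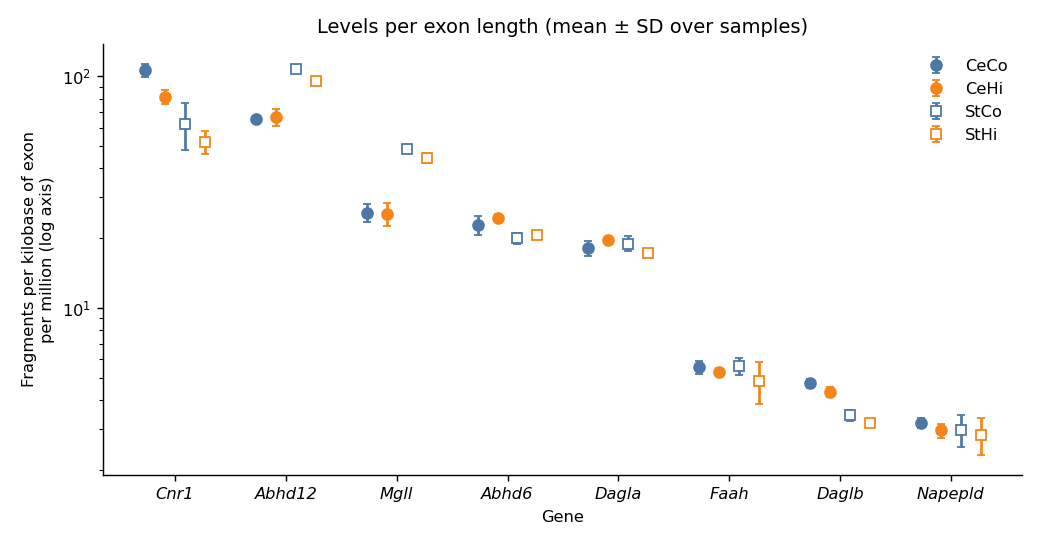
Levels of the 8 genes in fragments per kilobase of exon and per 1000000 fragments (vertical log axis), as the mean ± SD over the samples of CeCo, CeHi, StCo and StHi. Cnr1 is highest in the Ce groups, at 106.5 in CeCo, Abhd12 is highest in the St groups, at 107.6 in StCo, and Faah, Daglb and Napepld lie under 10 in all groups.

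The makeup of the 2-AG hydrolase transcripts differed between regions on this per-length scale. Abhd6 made up 19.97% ± 1.48 (SD, n = 4) of the summed Mgll, Abhd12 and Abhd6 level in CeCo and 21.0% ± 1.27 in CeHi, against 11.4% ± 0.403 in StCo and 12.8% ± 0.0482 in StHi. Its lowest share in the Ce was 18.7% and its highest in the St 12.9%, so the regions did not overlap. Mgll made up 22.6% ± 1.75 in CeCo and 21.8% ± 0.672 in CeHi, and 27.6% ± 0.895 in StCo and 27.7% ± 0.504 in StHi. Abhd12 held the largest share in every group, between 57.2% and 61.0% on average. The summed hydrolase level exceeded the summed level of Dagla and Daglb by 2.32 ± 0.09 on the log2 scale in CeCo and 2.28 ± 0.12 in CeHi, and by 2.98 ± 0.06 in StCo and 2.98 ± 0.02 in StHi. With the longest transcript as the length, these differences were 2.43, 2.41, 3.17 and 3.16. Dagla held 79.3% of the lipase level in CeCo and 81.9% in CeHi, and 84.6% in StCo and 84.3% in StHi. By the longest transcript these shares were 66.6%, 70.2%, 74.1% and 73.7%.

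The comparison of the lines asks where the selected and the control line differed, and none of the 8 genes passed it in the Ce, in the St, over both regions or in the line-by-region interaction. Of all genes tested 5.94% passed in the Ce, 2.66% in the St, 8.48% over both regions and 0.532% in the interaction. At an unadjusted P-value under 0.05, 2 of 8 genes were found by limma in the Ce (Cnr1 and Daglb) against 19.7% of all genes. In the St there were 2 (Abhd12 and Faah) against 14.1%, over both regions 4 (Cnr1, Daglb, Abhd12 and Faah) against 22.3%, and in the interaction 2 (Dagla and Abhd12) against 9.56%. The quasi-likelihood test of edgeR on the fragments recovered from the values passed none in these 4 comparisons, and DESeq2 passed 1 in the St and 1 over both regions. The differences over both regions were negative, that is lower in Hi, for 7 of 8 genes, all except Abhd6, with a median of -0.09 against -0.00 over all genes.

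Cnr1 had the largest line difference of the 8 genes in the Ce. The 4 CeHi samples, at 18323 to 21908 normalized counts, were all below the 4 CeCo samples, at 24677 to 29961, and it was the only one of the 8 genes whose Ce groups did not overlap, against 13.6% of all genes. The difference was -0.39 ± 0.15 (SE) on the log2 scale, a ratio of 0.764 with a 95% confidence interval of -0.70 to -0.07 in log2 units, and the adjusted P-value was 0.152. With the Ce fitted alone the adjusted P-value was 0.00852, and without StCo replicate 2 it was 0.0242. The cause of these changes was not tested. In the St the difference was -0.25 ± 0.16 (adjusted P-value = 0.554) and the groups overlapped, and the interaction of 0.14 ± 0.22 did not pass (adjusted P-value = 0.927). Over both regions the difference was -0.32 ± 0.11 (adjusted P-value = 0.0880), which passed with DESeq2 (adjusted P-value = 0.0148) and without StCo replicate 2 (-0.41, adjusted P-value = 0.00237). In the Ce the summed projection neuron markers were 8319 to 9782 in CeCo and 10541 to 11668 in CeHi without overlap, and the granule cell sums were 189769 to 221448 and 171982 to 198997. None of the projection neuron or granule cell markers passed between lines in the Ce. The sums of 6 interneuron markers were 22358 to 23915 in CeCo and 23433 to 27823 in CeHi, and 1 of them, Npy, passed (1.25, adjusted P-value = 0.000168). The paper reports Npy in the opposite direction, as lower in the Ce of Hi mice. The endothelial marker sums, 4988 to 5372 in CeCo and 5466 to 5868 in CeHi, did not overlap either, and none of those markers passed. The Purkinje cell marker sums overlapped, at 235322 to 285676 in CeCo and 231144 to 271566 in CeHi. The sums of the remaining marker lists overlapped too. The part of these markers in the Cnr1 difference was not tested.

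Abhd12 had the lowest adjusted P-value of the 8 genes in the St. The 3 StHi samples, at 11168 to 11822 normalized counts, were below the 4 StCo samples, at 12556 to 13639. The difference was -0.19 ± 0.06, a ratio of 0.876 (adjusted P-value = 0.0954). The adjusted P-value was 0.0312 with DESeq2, 0.0167 with sample quality weights and 0.0354 without CeHi replicate 3. In the Ce the difference of Abhd12 was 0.02 ± 0.05, and the interaction of -0.22 ± 0.08 had an adjusted P-value of 0.333. Daglb was the other gene whose St groups did not overlap, against 13.1% of all genes, with 1342 to 1484 in StCo and 1269 to 1333 in StHi and a difference of -0.12 ± 0.06 (adjusted P-value = 0.374). Its difference in the Ce was also -0.12 ± 0.05 (adjusted P-value = 0.219), and over both regions it was -0.12 ± 0.04 (adjusted P-value = 0.0718, and 0.0474 without CeCo replicate 2). With sample quality weights the differences over both regions passed for Daglb (adjusted P-value = 0.0209), Abhd12 (0.0458) and Faah (0.0483). The oligodendrocyte marker sums were 184858 to 269931 in StCo and 283034 to 322892 in StHi, without overlap, although none of those 5 markers passed. The part of these cells in the St differences was not tested.

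Dagla pointed in opposite directions in the regions, with a line difference of 0.12 ± 0.07 within the Ce and -0.15 ± 0.07 within the St, and its interaction of -0.28 ± 0.10 had an adjusted P-value of 0.337. Mgll had a line difference of -0.02 ± 0.07 within the Ce and -0.15 ± 0.08 in the St (adjusted P-value = 0.452), where 2 of the 3 StHi samples were below all StCo samples. Faah had -0.07 ± 0.10 within the Ce and -0.25 ± 0.10 in the St (adjusted P-value = 0.267). Without StHi replicate 0 the St difference of Faah was -0.41 and passed (adjusted P-value = 0.00983), as did its difference over both regions (adjusted P-value = 0.00935). Napepld had -0.11 ± 0.12 in Ce and -0.09 ± 0.13 in St samples, and Abhd6 had 0.10 ± 0.07 and 0.02 ± 0.07. The 95% confidence intervals of the line differences reached from -0.18 to 0.13 for Mgll in the Ce, -0.13 to 0.18 for Abhd6 in the St and -0.37 to 0.19 for Napepld in the St.

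The other genes of the pathway were 43 genes in 6 lists, of which 35 passed the filter. In the Ce 1 was higher and 1 lower in Hi, against 2.94% and 2.99% of all genes, and in the St 1 was higher, against 1.49%. Over both regions 3 were higher and 1 lower, against 4.34% and 4.14%, and in the interaction none passed (limma; DESeq2 passed 1). Naaa encodes the acid amidase that degrades N-acylethanolamines such as palmitoylethanolamide in lysosomes. Its normalized counts were 943, 998, 1018 and 962 in StCo and 1276, 1226 and 1247 in StHi. The StHi samples were all higher, by 0.34 ± 0.06 on the log2 scale (adjusted P-value = 0.00209), and this passed in all 29 alternatives run. In the Ce the counts were 1305, 1149, 1201 and 1195 in CeCo and 1429.5, 1287, 1365 and 1372 in CeHi. These groups overlapped, and the difference was 0.16 ± 0.05 (adjusted P-value = 0.0842). The interaction of Naaa did not pass (0.18 ± 0.08, adjusted P-value = 0.455), and over both regions the gene was higher in Hi by 0.25 ± 0.04 (adjusted P-value = 0.000435).

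Ptgs2 encodes cyclooxygenase-2, which can oxidise 2-AG and anandamide to prostaglandin-like products. It was at 73.6, 90, 81.9 and 64.1 normalized counts in CeCo and 61.4, 33.8, 32.4 and 33.8 in CeHi. All CeHi samples were lower, by -0.97 ± 0.18 on the log2 scale (adjusted P-value = 0.00302), which passed in all 29 alternatives with differences from -1.18 to -0.86. In the St the counts were 381, 457, 329 and 348 in StCo and 302, 261 and 271 in StHi. The StHi samples were also all lower, with a difference of -0.44 ± 0.20 that did not pass (adjusted P-value = 0.309). Over both regions Ptgs2 was lower in Hi by -0.71 ± 0.13 (adjusted P-value = 0.00260).

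Gdpd1, a phosphodiesterase that can release N-acylethanolamines from lysophospholipids, was measured at 2058, 2116, 1988 and 1934 in CeCo and 2333, 2318, 2329 and 2229 in CeHi. It was higher in CeHi by 0.18 ± 0.05 (adjusted P-value = 0.0347), and the adjusted P-value was 0.0574 to 0.0955 when CeCo replicate 0, 2 or 3 or CeHi replicate 0, 1 or 2 was left out. Abhd4, which acts on N-acyl phospholipids, was higher in Hi over both regions by 0.21 ± 0.05 (adjusted P-value = 0.0188). Pla2g16, an acyltransferase and phospholipase related to N-acylethanolamine precursor synthesis, was higher by 0.19 ± 0.05 (adjusted P-value = 0.0232). Without StHi replicate 1 these adjusted P-values were 0.0597 for Abhd4 and 0.0743 for Pla2g16, and without StCo replicate 1 that of Pla2g16 was 0.0533. Of the 10 tested N-acylethanolamine genes, 1 passed in the Ce, 1 in the St and 3 over both regions, against 5.94%, 2.66% and 8.48% of all genes. The median of the list over both regions was 0.16, against -0.00 over all genes. The list was chosen with earlier results of these data known, so no conclusion is drawn from its counts or median.

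**Figure D4:**
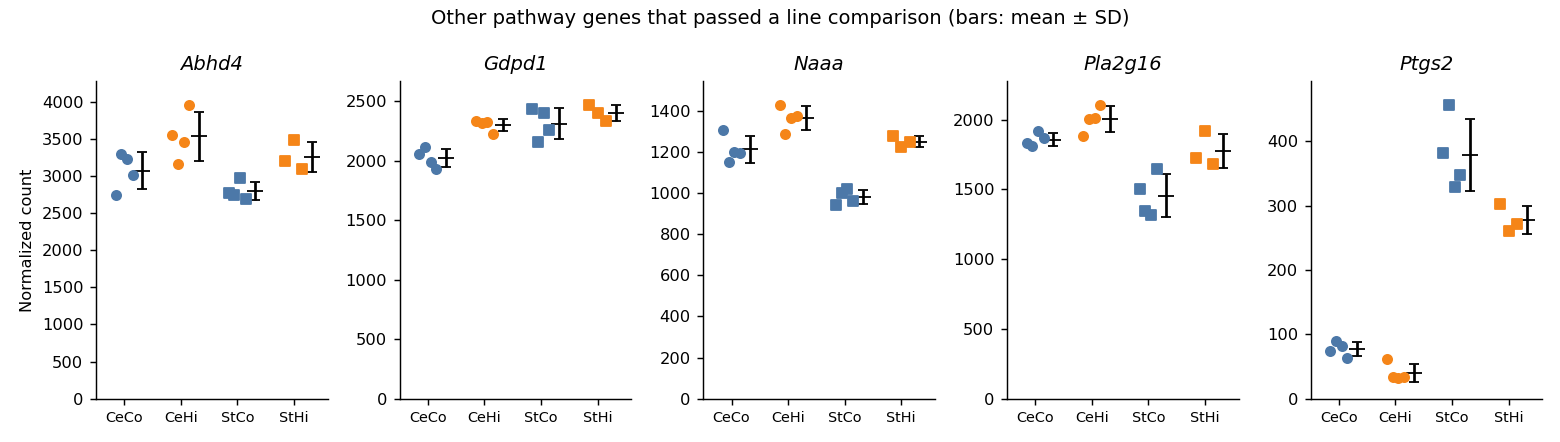
Normalized counts (vertical axes, from 0) of the 5 pathway genes that passed a comparison of the lines, in each sample of the 4 groups, with black bars for the mean ± SD. Naaa in StHi lies above all StCo samples, at 1226 to 1276 against 943 to 1018, and Ptgs2 in CeHi lies below all CeCo samples, at 32.4 to 61.4 against 64.1 to 90.0.

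Between regions 31 of the 35 tested pathway genes passed over both lines, 17 higher in the St and 14 higher in the Ce, against 80.2% of all genes. Among the drivers of 2-AG formation, 6 of 10 were higher in the St and 3 in the Ce. Chrm1, the muscarinic M1 receptor, was at 7336 to 8212 normalized counts in the St and 15.8 to 68.7 in the Ce (log2 difference 8.21 ± 0.23). Grm5, a glutamate receptor coupled to phospholipase C, was at 14759.8 to 19752 in the St and 351 to 1067 in the Ce (5.21 ± 0.17). The highest Ce values of both genes were in CeHi replicate 3. In the other Ce samples Chrm1 was at 15.8 to 30.3 and Grm5 at 351 to 478. In the opposite direction, Plcb4, a phospholipase C of Purkinje cells, differed by -2.67 ± 0.06. These passed with adjusted P-values of 1.86e-13, 4.88e-12 and 1.62e-16.

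Of the 7 binding and signalling partners of CB1, 3 were higher in the St and 2 in the Ce, with Gprasp1, a sorting protein, at 0.73 ± 0.07 and Gnao1, a G protein subunit, at 0.56 ± 0.04. Of the 10 tested N-acylethanolamine genes 4 were higher in the St and 6 in the Ce, with the phosphatase genes Ptpn22 at -4.997 ± 0.23 and Inpp5d at 2.202 ± 0.07. Both oxidation genes tested were higher in the St, Ptgs2 by 2.55 ± 0.13 and Alox5, a lipoxygenase, by 1.09 ± 0.16. Of the 4 intracellular carriers Fabp5 was higher in the St by 1.06 ± 0.08 and Fabp7 and Fabp3 in the Ce, Fabp7 by -1.25 ± 0.12. Of the other cannabinoid-responsive receptors, the nuclear receptor genes Ppara (0.17 ± 0.07) and Pparg (-0.96 ± 0.17) were the only ones tested. Cnr2, Gpr55 and Gpr119 did not pass the filter, and Gpr18 and Trpv1 had at most 3 fragments in every sample.

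**Figure D5:**
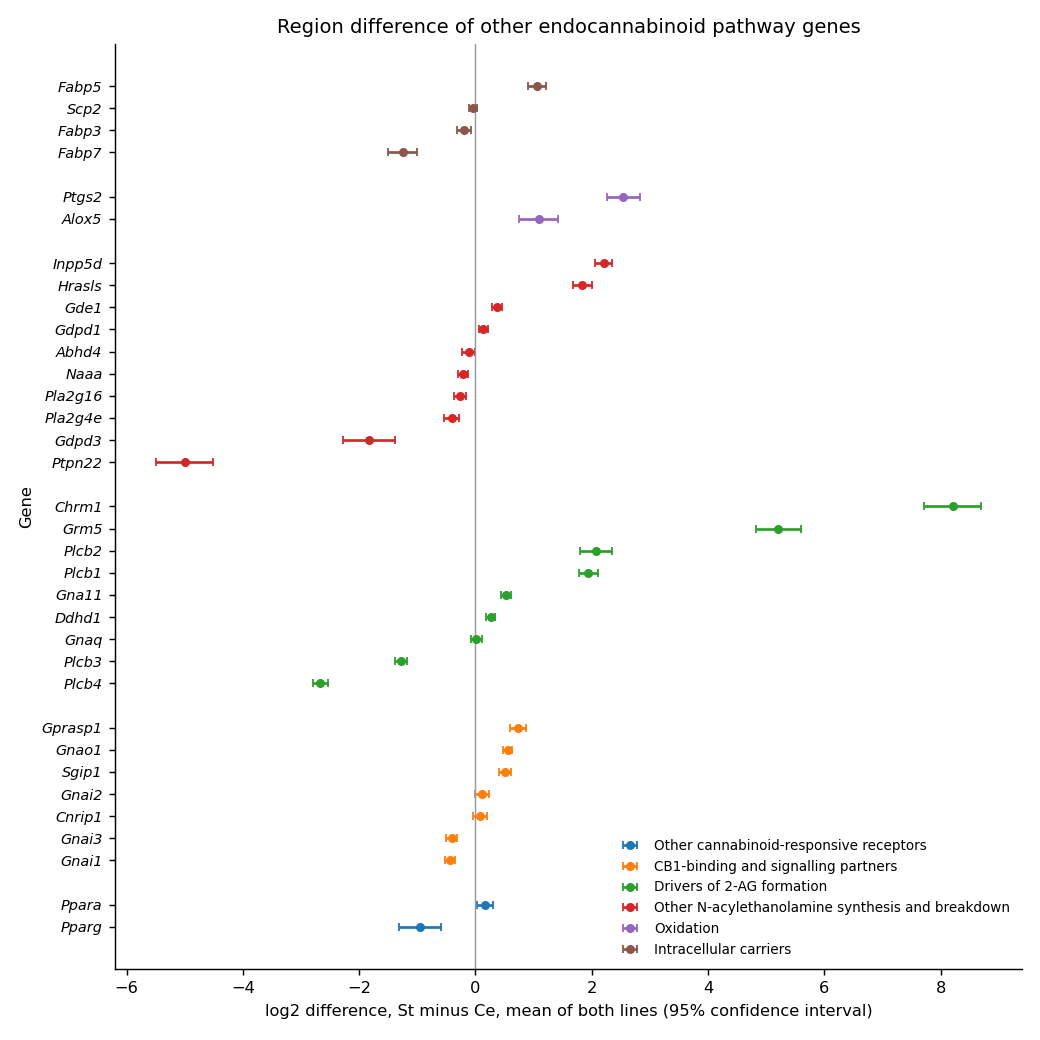
log2 differences between St and Ce over both lines (horizontal axis) of tested pathway genes, as points with 95% confidence intervals, coloured by list. Chrm1 at 8.21 and Grm5 at 5.21 are farthest to the St side and Ptpn22 at -4.997 and Plcb4 at -2.67 farthest to the Ce side.

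The genes whose profile over the 15 samples was nearest to each of the 8 were found by the root mean square difference of centred log2 values. For Cnr1 they were Kitl (0.140), Fbxw11 (0.163) and Zfp518a (0.163), which compares with a root mean square of 0.392 for Cnr1 itself about its mean. The nearest was at 0.0477 for Daglb (Ap2a2), 0.0528 for Dagla (Gnaq), 0.0597 for Abhd12 (Ube2e2), 0.0617 for Abhd6 (Strap), 0.0730 for Mgll (Egfl7), 0.0987 for Faah (Gnas) and 0.102 for Napepld (Uchl5). Gnaq, which stood nearest to Dagla, is itself among the drivers of 2-AG formation. Cnr1 and Napepld had no profile within 0.1, while the other 6 genes did.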

How the data were processed

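RNA-seq values of Ce and St from lines Hi and Co were analysed in 15 samples, grouped from their deposited labels, with the lines named as the columns of the table name them. The direction of the line contrasts rests on these names, which were not checked independently. For Npy in the Ce it was opposite to that in the paper. The authors aligned paired-end reads to GRCm38 with TopHat2 and normalized for library size with Cuffnorm 2.2.1 (tools and builds per the labels and methods). What was deposited is a signal per gene, the fragment count over a library size factor of that sample, without correction for length: 99.6% to 99.8% of the low values of a sample were whole multiples (tolerance 0.05) of a step of 0.841 to 1.30, the value of 1 fragment. Dividing by the step gave the fragments. The annotation used by the authors was not given in the sources used here.

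Genes with a CPM (count per 1000000) of at least 1 in 3 or more samples (15213 of 26628) were scaled with TMM (edgeR 4.0.16, factors 0.993 to 1.01), transformed as log2(value + 1), and fitted as 4 group means with limma 3.58.1 in R 4.3.3 (trended, robust). Benjamini-Hochberg adjustment covered all genes tested. A fold on this scale understates changes of low genes. The test was tested on simulated data of the line effect over regions and the interaction, each on 15213 genes with 200 changed by a log2 of 1: 100% and 98.5% were recovered, and 5.70% and 6.19% of calls were false. The simulation used the same spread setting for all genes and changed only genes of higher level. Recovery at smaller differences, such as those of the endocannabinoid genes between lines, was not simulated. Lengths came from GENCODE vM21. Replicates are separate samples by the labels. The variance between replicate pairs was 10.2 to 39.2 times that of counting (chi-square per degree of freedom, 21 pairs), so none was a duplicate. Summed over the genes of the table, the samples held 32909383 to 47485535 fragments, which is not the full size of a library. Counting error depends on the fragments of each gene and was not compared with the spread gene by gene. For Daglb in StHi, at 1028 to 1307 fragments, the SD was 2.53% of the mean, no larger than counting error.

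The 8 genes, the pathway lists and the markers were chosen with earlier results of these data known. Pathway genes named are all those that passed a line comparison, and 2 per list with the largest region difference. Plcb4, Fabp3, Npy and genes below the filter were named after their values were seen, and 1 gene of the lists is counted but not reported singly here. Alternatives covered the pseudocount, filter, scaling, moderation, edgeR and DESeq2 (1.42.0) on recovered fragments, sample weights, separate fits, replicate blocks and each sample left out. Deviations of the Ce and St samples with the same number correlated at 0.171 to 0.278 in all 4 pairs of Co and at -0.0751 to 0.0513 in the 3 of Hi. The fit reported has no replicate block.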

Additional observations from a re-analysis of the deposited data

Results flagged for a closer look

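Single samples stood apart in 4 of the 24 sets of 4 samples examined for the 8 genes, by the gap to the nearest other sample as a share of the range. Chance alone flags about 1 in 20 such sets. In CeHi, replicate 3 was highest for Daglb, at 1743 normalized counts against 1599.7 to 1621 in the others, and for Abhd12, at 8301 against 7036 to 7223. The same sample had the lowest Cnr1 value of CeHi, 18323, and the highest Mgll value, 5880. Its cortical excitatory neuron marker sum was also the highest of CeHi, 2542 against 995 to 1280. A link between these values was not tested. In CeCo, replicate 1 was highest for Abhd6, at 2467 against 1975 to 2034. In CeHi, replicate 2 was lowest for Abhd6, at 2131 against 2311 to 2345.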

How the results depend on the processing

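The counts of the 8 genes that passed between regions stayed between 4 and 5 under every alternative, and the interaction stayed at 0. Between lines, the count was 1 in the Ce with that region fitted alone, 1 in the St with DESeq2 and 1 with sample quality weights, and over both regions 1 with DESeq2 and 3 with sample quality weights. Leaving out single samples gave 0 to 1 in the Ce, in the St and over both regions, 4 to 5 between regions in Co, in Hi and over both lines, and 0 in the interaction. The cause was not tested. Blocking on the replicate number left the counts of the 8 genes at 0 between lines and in the interaction and at 5, 4 and 4 between regions (Co, Hi and both), and under the pairing the St count of pathway genes was 2 in place of 1.

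The St count of other pathway genes that passed was 2 with a pseudocount of 5, without a filter, with a CPM of at least 5, without scaling, with median-of-ratios scaling, with quantile normalization, with the St fitted alone and with either replicate block, and 4 with DESeq2 and with sample quality weights, and Pla2g16 passed in all of these except with the St fitted alone. The interaction count was 1 with DESeq2. Leaving out single samples gave 1 to 2 in the Ce, 1 to 4 in the St (2 without CeHi replicate 0 or 1 or StCo replicate 3, 3 without StHi replicate 0, 4 without CeHi replicate 3), 2 to 6 over both regions, 0 to 1 in the interaction and 29 to 31 between regions.

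Directions turned for the following log2 differences, none of which had passed. Without a filter these were Daglb in the interaction (-0.0011) and Napepld between regions in Co (-0.012) and over both lines (-0.0033). With quantile normalization they were Napepld in the interaction (-0.0015) and between regions in Co (-0.041), in Hi (-0.043) and over both lines (-0.042), and Dagla over both lines (-0.015). With sample quality weights they were Abhd12 between lines in the Ce (-0.0035), Abhd6 in the St (-0.00655) and Napepld in the interaction (-0.011). With the replicate block they were Napepld in the interaction (-0.020), in Hi (-0.012) and over both lines (-0.0018). Leaving out single samples, turned values ranged for Napepld from -0.21 to 0.0697 between lines in the St, -0.0957 to 0.184 in the interaction, and -0.0979 to 0.0792, -0.0864 to 0.193 and -0.0386 to 0.101 between regions in Co, Hi and both. They ranged between lines from -0.0276 to 0.0542 for Abhd12 and -0.0902 to 0.0374 for Mgll in the Ce, -0.0191 to 0.0644 for Abhd6 in the St and -0.0483 to 0.0155 for Dagla over both regions. In the interaction they ranged from -0.0356 to 0.249 for Cnr1 and -0.0248 to 0.0459 for Daglb, and between regions from -0.101 to 0.00918 for Abhd6 in Co, -0.205 to 0.0893 for Faah in Hi and -0.0303 to 0.116 for Faah over both lines.

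Levels per kilobase moved by more than the spread between samples for 21 of 32 gene and group pairs with the longest transcript as the length. Over all genes, edgeR on the recovered fragments passed 952 in the Ce, 420 in the St, 1323 over both regions and 100 in the interaction. DESeq2 passed 1389, 709, 1718 and 277 against 903, 405, 1290 and 81 with limma, and sample quality weights passed 740 in the St and 182 in the interaction. The limits are 3 StHi samples and 1 line of each kind.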
